A study of Mus musculus with 21 samples.

Results

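The sites described here are places in mouse liver chromatin that the glucocorticoid receptor occupied more than 50 kb away from every protein-coding gene. The peaks of 18 receptor ChIP-seq libraries were merged into sites wherever they overlapped by at least 1 bp. A site was kept if it lay on chromosomes 1 to 19 or X, was called in at least 3 of the 18 peak lists, and had its centre more than 50 kb from the span of each of 21900 coding genes of the RefSeq annotation (GRCm38.p6, the assembly also called mm10). The rule used position and number of lists, without regard to treatment or oxygen, and no tag counts. The detection tests below use the same calls, and 138 of the 274 sites were called in DEX lists only. Those tests are therefore not independent of the rule. It left 274 of 2550 sites, called far sites below, which is 10.7% of all. Of the other 2276 sites, 1417 lay inside a coding gene, 490 within 10 kb of one and 369 between 10 and 50 kb away.

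All animals were C57BL/6J mice, and each library came from liver. Mice were kept in normoxia (21% oxygen) or in 7% oxygen for 6 h or 24 h, then received 10 mg/kg dexamethasone (DEX), a synthetic glucocorticoid, by intraperitoneal injection, or phosphate-buffered saline (PBS), and were sampled 2 h later. Each of these 6 groups had 3 replicates, which the submitters call biological, and 3 input libraries, 1 for each oxygen condition, served as controls. The mice kept their own adrenal hormones as far as the labels say, so the PBS libraries are a baseline with endogenous hormone, not one without ligand. Whole liver was used, so fewer cells with an occupied site and weaker occupancy per cell cannot be told apart.

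The glucocorticoid receptor is a nuclear receptor that stays in the cytoplasm without hormone, enters the nucleus once a glucocorticoid binds it, and attaches to short palindromic sequences called glucocorticoid response elements or to other DNA-bound factors. Much of its binding lies away from promoters, in enhancers that can act on genes over long distances. In liver the receptor acts on genes of fasting metabolism and of the response to inflammation. The gene nearest to a site is given below as a landmark, and need not be the gene that the site acts on.

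Sequences could be printed only where a far site reached into a RefSeq promoter window, which runs from 250 bases before to 50 bases after a gene's start. Of the 274 far sites, 11 did so, at 13 windows of 12 long non-coding RNA genes. A relaxed glucocorticoid response element (GNACA, 3 bases of any kind, TGTNC, read on both strands) occurred inside 2 of these overlaps, and both are shown with the element in capitals because its middle sat 11 bp and 1 bp from the centre of the respective site. The site at A230028O05Rik, 66809 bp from Lpp, is printed from chr16:25059389-25059527, plus strand. The site at Mir100hg, 313018 bp from Ubash3b, is printed from chr9:41474643-41474814, plus strand. The third sequence lies at the start of Gm32287 and Gm14321, 87114 bp from Cebpb, chr2:167777419-167777664, minus strand, and is shown because that site lost tags in hypoxia. Its capitals mark a hypoxia response element core (ACGTG) and an AP-1 motif (TGANTCA), which share letters. The fourth, chr16:30008564-30008716, plus strand, lies at the start of 4632428C04Rik, 56673 bp from Hes1, and is shown as a site that was called in each DEX library and in none with PBS.
A230028O05Rik: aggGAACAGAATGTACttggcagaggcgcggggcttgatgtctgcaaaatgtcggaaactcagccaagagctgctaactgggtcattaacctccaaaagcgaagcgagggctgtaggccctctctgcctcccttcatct
Mir100hg: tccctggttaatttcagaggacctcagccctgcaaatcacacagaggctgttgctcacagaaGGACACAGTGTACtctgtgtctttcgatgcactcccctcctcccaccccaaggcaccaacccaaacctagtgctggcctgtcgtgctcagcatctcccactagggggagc
Gm32287: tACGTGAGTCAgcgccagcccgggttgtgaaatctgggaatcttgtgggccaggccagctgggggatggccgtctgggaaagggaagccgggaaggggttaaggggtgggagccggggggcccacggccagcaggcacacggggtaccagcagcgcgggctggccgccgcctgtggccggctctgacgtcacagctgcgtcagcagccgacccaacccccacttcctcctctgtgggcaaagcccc
4632428C04Rik: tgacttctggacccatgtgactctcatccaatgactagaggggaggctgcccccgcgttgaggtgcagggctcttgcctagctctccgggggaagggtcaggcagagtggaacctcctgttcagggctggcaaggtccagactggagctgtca

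Among all 32851 RefSeq promoter windows, 0.475% held the relaxed element on either strand, and among the 168 windows that other receptor sites overlapped 7.14% did. The full element (AGAACA, 3 bases of any kind, TGTTCT), every match of which is also a relaxed one, was in 0 of the 13 windows at far sites and in 3 of all windows. C/EBP motifs (TTGCNNAA) were in 3 of the 13 windows and 10.8% of all, AP-1 motifs in 2 and 7.81%, and the hypoxia response element core in 3 and 19.6%. FOXA (TGTTTAC) and HNF4 (CAAAGTCCA) motifs were in none of the 13. These matches describe letters in windows and not bound elements, and 13 windows are too few to compare shares.

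The far sites were spread over a wide range of distances. The nearest coding gene was a median of 100907 bp away, with 135 sites between 50 and 100 kb, 79 between 100 and 200 kb and 60 beyond 200 kb. The 5 most remote sites lay 724121 bp from Myc, 600440 bp from Igfbp3 (an insulin-like growth factor carrier), 581395 bp from Klf4, 520882 bp from Rnf144a and 467181 bp from Sox2. Of these, the Igfbp3 site (chr11:7815828-7816048) had 218.9 to 337.8 normalized tags in the 9 DEX libraries, with a median of 287.0, and was called in 2 PBS libraries, at 50.9 and 169.0 tags. Every DEX value of that site was above both PBS values. Just inside the 50 kb limit lay sites at 50843 bp (Gm38457), 50911 bp (Tafa1) and 51259 bp (Rxra), called in 6, 9 and 9 DEX libraries. Just outside lay sites at 48947 bp (Eed), 48926 bp (Gm38457) and 48826 bp (Slc45a1), called in 9, 5 and 5 DEX libraries. Gm38457 thus had a site on each side of the limit.

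Most far sites were found far more often after DEX. In normoxia 250 of the 274 were called in at least 2 of the 3 DEX libraries and 41 in at least 2 of the 3 PBS libraries. After 6 h of hypoxia these counts were 188 with DEX and 72 with PBS, and after 24 h they were 172 and 24. Per library, 156 to 264 far sites were called with DEX and 17 to 101 with PBS, so the ranges of the 2 treatments did not overlap. The same held for all 2550 sites, of which 1224 to 2425 were called per DEX library and 74 to 742 per PBS library.

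Detection was tested for each site with an exact Cochran-Mantel-Haenszel test of called against not called, stratified by oxygen, with Benjamini-Hochberg adjustment over 2563 sites. By this test 149 of the 274 far sites (54.4%) were called more often with DEX at an adjusted p of 0.05, where 55.3% of all tested sites were. None was called less often, where 0.039% of all were, and none was less often at an unadjusted p of 0.05 either, by this test or by Fisher's exact test. By distance the share was 55.5% inside genes, 57.3% within 10 kb and 54.2% from 10 to 50 kb. Of the 125 that did not pass, 66 were in 3 or 4 lists, where no far site passed. The normoxia PBS library replicate 1 stands apart, with 43645787 tags against 5772670 to 16500568 in the others, longer peaks and up to 2 tags kept per position. Without it 155 of 271 far sites passed. With each list held to the length of the shortest, 5 of 27 far sites passed, and with sites in fewer than 3 lists tested too, 96 of 514.

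**Figure D1:**
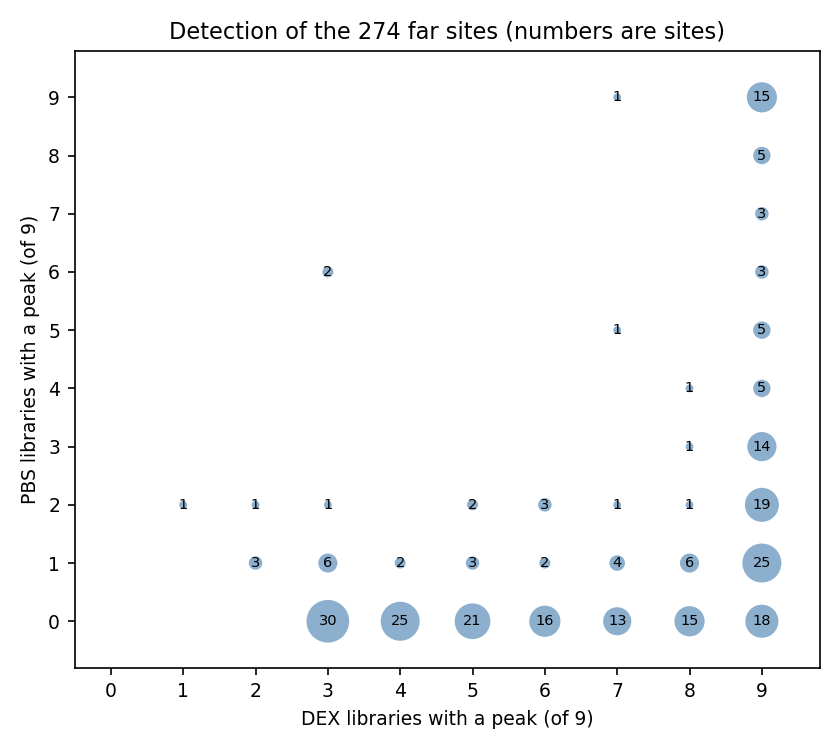
Number of DEX libraries (x axis, of 9) and PBS libraries (y axis, of 9) in which each of the 274 far sites had a peak; the area of a circle and the number in it give the number of sites. The bottom row holds 138 sites called in no PBS library, as were 57.2% of all tested sites, and 4 sites lie where PBS libraries outnumber DEX libraries.

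A set of 18 far sites (6.57%) was called in all 9 DEX and in none of the 9 PBS libraries, which was so for 8.15% of all tested sites. This definition fixes the Cochran-Mantel-Haenszel p of each at the smallest the design can give, 0.00025 (adjusted p = 0.00307 by Benjamini-Hochberg over all tested sites). That p is therefore no further support for these sites. Their mean tags with DEX ran from 74.1 to 175. By mean tags the strongest, at 175, lay 161413 bp from Gm46911 (chr5:43049340-43049558), with 125.6 to 245.3 tags and a median of 170.9. Next by mean, at 169.7, came a site 91799 bp from Bcl6, a transcriptional repressor (chr16:24080556-24080775), with 120.5 to 270.2 tags and a median of 160.2. The site 67211 bp from Ube2e1, a ubiquitin-conjugating enzyme, had a mean of 161.5 and a median of 172.9 tags, and that 91336 bp from Cebpb had 138.1. Sites 141407 bp from the adhesion molecule gene Nectin1, 409394 bp from Zdhhc25, and 245770 bp and 88802 bp from Maf, a bZIP transcription factor, had medians of 121.4, 126.6, 107.4 and 104.7 tags. No member of this set was among the 10 strongest far sites.

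Tags are the normalized tag counts of the deposited peak lists, scaled to 10000000 per library, and exist only where a peak was called. The 10 far sites with the most tags after DEX, among 112 (40.9%, against 36.5% of all tested sites) called in all 9 DEX libraries, included 4 near Ptpn1 and 2 near Foxo1. The strongest lay between Cebpb and Ptpn1, 85979 bp from Ptpn1, the gene of a phosphatase that turns off the insulin receptor (chr2:167844631-167844911). It had 1579.5, 1735.3 and 2018.9 tags in normoxia with DEX, 1936.8, 2224.3 and 1500.6 after 6 h, and 1328.0, 1678.1 and 2243.3 after 24 h. With PBS it had 126.0, 974.9 and 872.7 tags in normoxia, 924.7, 1959.0 and 1617.7 after 6 h, and 1271.8, 808.6 and 606.7 after 24 h. The PBS values were lower on the whole, but the 6 h PBS libraries replicate 2 and 3 lay among the DEX values.

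The second strongest was 115944 bp from Usp24, a deubiquitinase gene (chr4:106199896-106200176). It had 765.7 to 1343.8 tags with DEX (median 1087.2) and was called in 4 PBS libraries, at 19 to 763.8 tags. All 9 DEX values were above the PBS values, though the lowest lay within 2 tags of the highest PBS value, from 6 h hypoxia replicate 2. The next, 78927 bp from Ptpn1, ranged from 542.7 to 1022.1 tags with DEX (median 838.2) and from 49.7 to 553.1 under PBS (median 129.7). A site 251118 bp from Foxo1, which drives gluconeogenic genes in fasting, had medians of 670.4 and 175.1 tags. A second Foxo1 site at 196140 bp had a median of 504.7 with DEX and was called in 2 PBS libraries.

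Of the rest of the 10, 2 more sites lay near Ptpn1, at 107155 and 70003 bp, with DEX medians of 616.8 and 546.0 tags. Sites 51431 bp from Cdkn2aipnl, 142658 bp from Irf2bp2 (a transcriptional corepressor) and 51259 bp from Rxra (the partner of many nuclear receptors) had DEX medians of 478.0, 506.9 and 472.2 tags. In 7 of the 10 the site was called in all 9 PBS libraries too. Such sites cannot pass the detection test, since a peak was present under both treatments.

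**Figure D2:**
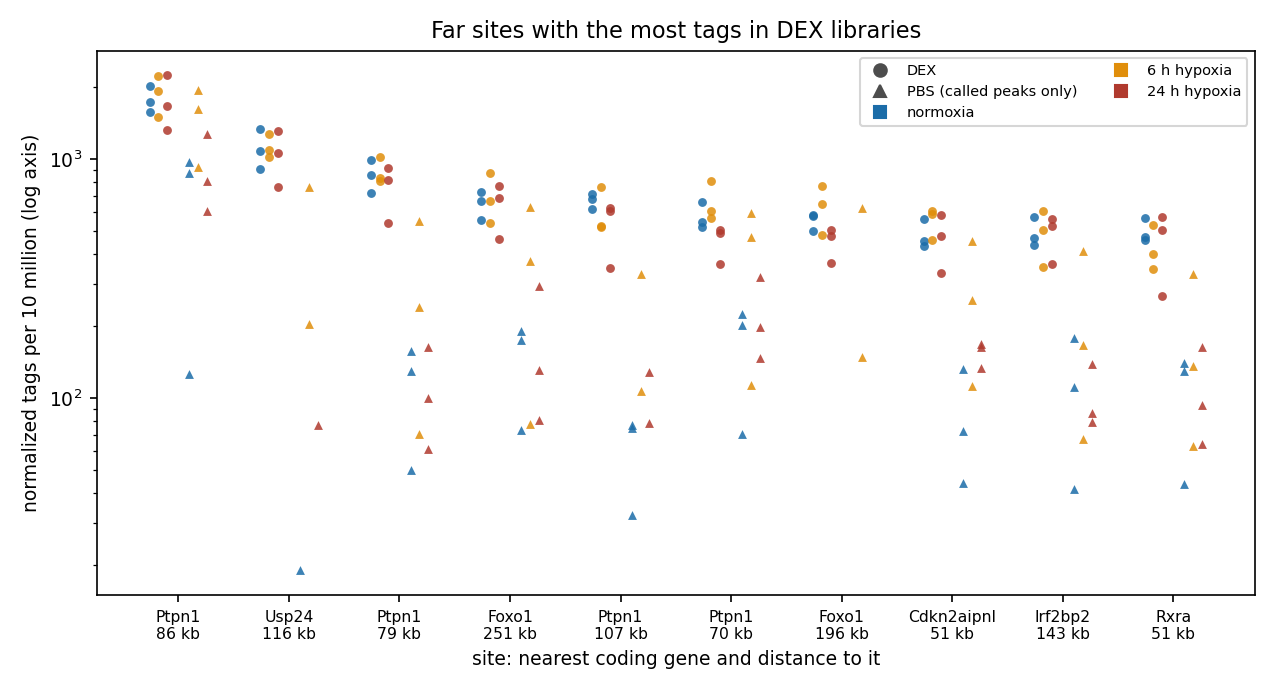
Normalized tags per 10000000 (log y axis) of the 10 far sites with the most tags in DEX libraries; circles are DEX and triangles PBS libraries in which the site was called, coloured by oxygen condition. The DEX values of each site lie within a narrow band, while PBS values spread widely, from 126.0 to 1959.0 at the strongest site.

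For sites with a peak in each of the 18 libraries the tags themselves could be compared. There were 15 such far sites (5.47%, against 2.42% of all tested sites). In limma, fitted over the 62 sites with full values and with Benjamini-Hochberg adjustment over them, 14 of the 15 had more tags with DEX, where 95.2% of all 62 did. The median log2 change was 1.71 for the 15 and 1.63 for the 62. At 1 of the 15, 60668 bp from Wdr5, all 9 DEX libraries were above all 9 PBS libraries, where 11.3% of the 62 sites were so. At the other 14 the highest PBS value exceeded the lowest DEX value. The extent of the DEX effect in hypoxia against normoxia did not pass limma's interaction test at any of the 15, nor at an unadjusted p of 0.05, where 0% of the 62 did. The log2 estimates were wide, with an SE of 0.67, and all 15 were negative (median -0.60, range -1.29 to -0.03), toward a smaller DEX effect in hypoxia. All 62 were negative too (median -0.65). The sites share the same libraries, so the common sign is not a separate result for each site. A low PBS value in normoxia makes such an estimate more negative. The normoxia PBS library replicate 1 had the lowest PBS value at the sites 85979 bp from Ptpn1 and 66809 bp from Lpp. No interaction estimate without that library is given here.

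The largest change was at the site 78927 bp from Ptpn1, at 2.68 ± 0.32 on the log2 scale (SE; limma adjusted p = 4.63e-15), or 6.40-fold, from 169 ± 156 tags in the PBS group to 835 ± 145 in the DEX group (SD over 9 libraries). Sites near Irf2bp2 (142658 bp) and Rxra (51259 bp) followed, at 4.17-fold and 4.08-fold. At the strongest site, 85979 bp from Ptpn1, the change was 2.13-fold (log2 1.09 ± 0.32; limma adjusted p = 0.000686), from 1018 ± 542 tags to 1805 ± 321. It fell from 1.09 to 0.77 without the normoxia PBS library replicate 1. The SE was 0.32 at each of the 15 sites, so it and the p-values rest on a shared variance and do not measure a given site's own spread. Changes at the others ran from 2.43-fold (61628 bp from Trpm3) to 3.76-fold (251118 bp from Foxo1).

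The exception was the site 66809 bp from Lpp, a focal adhesion protein gene, whose sequence with a response element near its centre is printed above (chr16:25059247-25059527). It had 289.0, 270.1 and 270.9 tags in normoxia with DEX, 322.5, 358.6 and 277.8 after 6 h, and 206.8, 224.9 and 341.7 after 24 h. With PBS it had 107.7, 280.4 and 307.9 in normoxia, 288.7, 371.8 and 348.6 after 6 h, and 380.3, 223.5 and 256.6 after 24 h. Apart from the lowest PBS value, both treatments covered much the same range. The log2 difference was 0.06 ± 0.32 (limma adjusted p = 0.858), and it was -0.10 without the normoxia PBS library replicate 1 that holds this lowest value. When each library was centred on its own median over the 62 sites, which shifts all of them by about the median change, 4 of the 15 had more tags with DEX, and the log2 difference at the Lpp site was -1.58 (limma adjusted p = 3.38e-08).

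Far sites made up a smaller share of the sites called with DEX than with PBS. The share was 10.3% to 12.7% in the 9 DEX libraries and 12.6% to 23.0% in the 9 PBS libraries, which differed by -4.45 percentage points (DEX minus PBS; exact permutation p = 0.00025 within oxygen conditions, two-sided, the smallest the 8000 arrangements allow; Benjamini-Hochberg p = 0.00225 over 9 library comparisons). Within normoxia, 6 h and 24 h the difference was -4.54, -2.55 and -6.27 points, each with an exact permutation p of 0.1, the smallest that 3 against 3 allows. The lists differed in length at the same time: 1224 to 2425 of the sites in 3 or more lists were called per DEX library and 74 to 742 per PBS library. With each list held to the length of the shortest, the difference was -3.39 points (exact permutation p = 0.001). It turned to 0.55 points (exact permutation p = 0.0025) for sites over 50 kb from every annotated gene, non-coding genes included, of which there were 25.

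**Figure D3:**
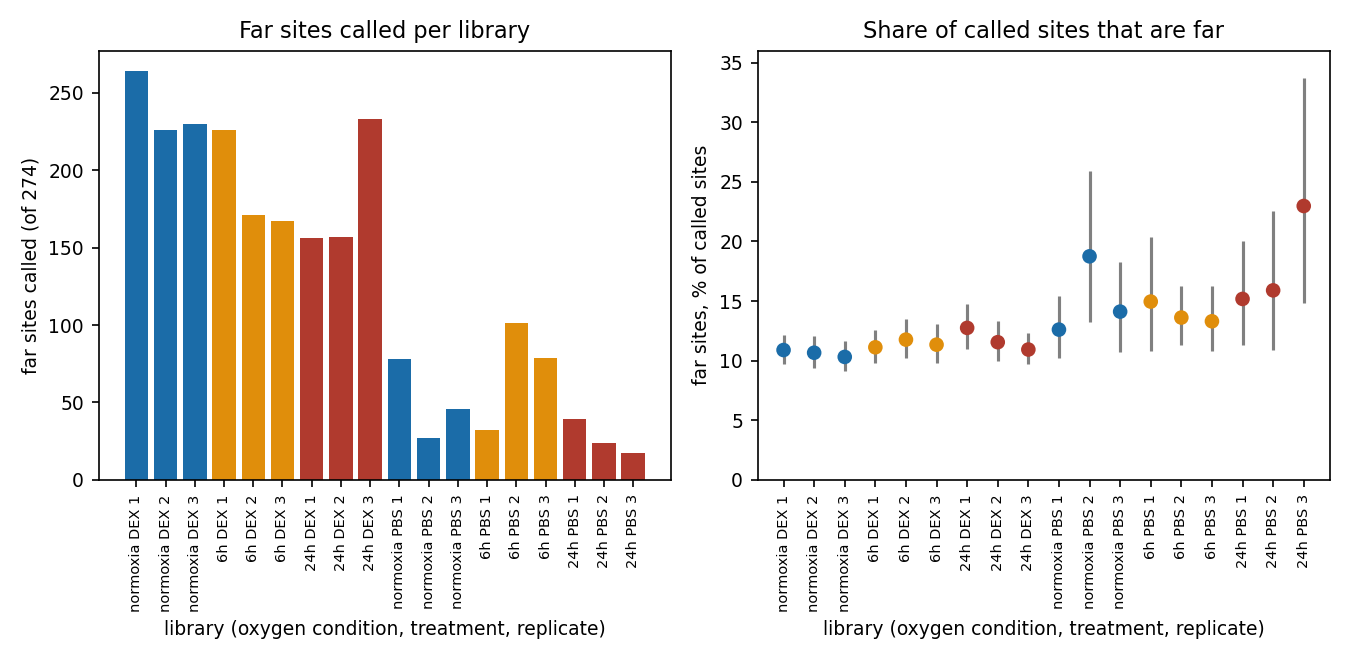
Left, number of the 274 far sites called in each library; right, share of each library's called sites that are far, in percent, with 95% Wilson intervals that cover counting error only. DEX libraries have 156 to 264 far sites at 10.3% to 12.7%, and PBS libraries 17 to 101 at 12.6% to 23.0%.

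With DEX, far sites were 11.4 ± 0.327% of called sites after 6 h and 11.7 ± 0.924% after 24 h, against 10.6 ± 0.291% in normoxia (SD, n = 3 each). The hypoxia libraries were 0.953 points higher (exact permutation p = 0.0357, two-sided; Benjamini-Hochberg p = 0.0804), which did not pass after adjustment. Hypoxia lists held 1224 to 2132 of the sites and normoxia lists 2120 to 2425. Without any 1 of the 3 normoxia libraries the exact permutation p was 0.179 or more, and without 6 h replicate 1 or 2 or 24 h replicate 2 it was 0.0536. With PBS the difference was 0.831 points (exact permutation p = 0.81).

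At sites called in all 9 DEX libraries, the 112 far ones carried slightly more tags than the 823 others. The median of the far sites exceeded that of the others in 8 of 9 libraries, by 1.05-fold on average (log2 ratio 0.07; exact sign-flip permutation p = 0.00781, Benjamini-Hochberg p = 0.0352). The p-values of this comparison measure how steadily the same 2 sets of sites differed across libraries. They do not take in the spread between sites. The exception was normoxia replicate 3, with medians of 137.0 and 138.6 tags. Without 6 h hypoxia replicate 2 or 24 h hypoxia replicate 2 the log2 ratio was 0.04 and 0.02, with exact permutation p of 0.188 and 0.328. For the 10 sites over 50 kb from every annotated gene it turned to -0.36 (exact permutation p = 0.00391). Fold over input was 1.09 times as high at far sites (exact permutation p = 0.0234, Benjamini-Hochberg p = 0.0703), and the focus ratio, the fraction of tags near the peak's centre, differed by 0.00272 (exact permutation p = 0.242).

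Far sites lay in groups as well as alone, and runs were counted among far sites only. Of the 274, 81 lay in 19 runs of at least 3 far sites with neighbours within 50 kb, 56 in 28 pairs and 137 alone. Another receptor site lay within 50 kb of 54.0% of far sites, against 48.8% of sites inside genes, 56.9% within 10 kb and 57.7% from 10 to 50 kb. The largest run spanned 95780 bp on chromosome 2, from 167765108 to 167860887, with 13 far sites. It filled part of the 240317 bp between Cebpb, a transcription factor of liver metabolism and the acute phase, and Ptpn1, and all 13 sites in at least 3 lists in that interval were far sites. Of these 9 were called in all DEX libraries and 3 in all 18, and 4 passed the detection test. The run held 4 of the 10 strongest far sites, the strongest one and 3 others at most 21.2 kb from it.

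**Figure D4:**
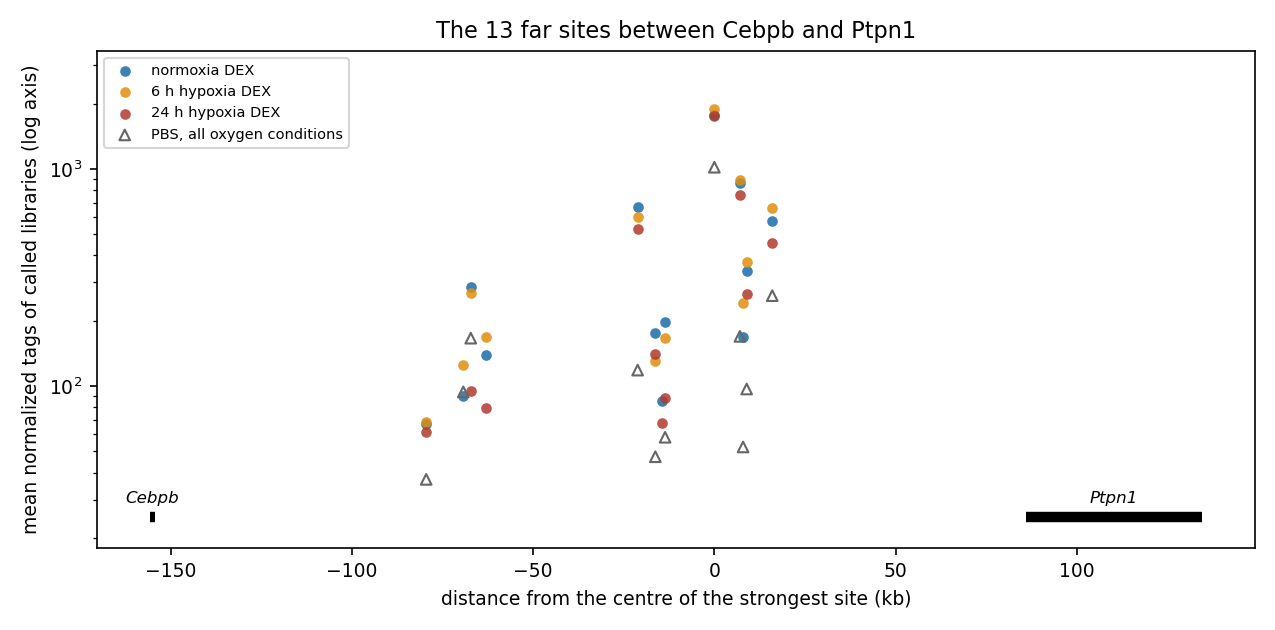
Mean normalized tags (log y axis) of the 13 far sites between Cebpb and Ptpn1 against distance from the strongest site in kb; filled circles are DEX means over the called libraries of 1 oxygen condition and open triangles PBS means, and black bars mark the genes. The strongest site stands highest in each oxygen condition (1805 tags over all DEX libraries), and at the sites 67.2, 63.0 and 13.6 kb to its left the 24 h means (95.2, 79.5 and 88.0) lie below those of normoxia (287, 139 and 197).

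The second run held 10 far sites over 93119 bp between Slc45a1 and Errfi1 (chr4:150707109-150800227). Errfi1 encodes a feedback inhibitor of the epidermal growth factor receptor and is a known glucocorticoid target. In this run 6 sites were called in all DEX libraries, none in all 18, and 6 passed the detection test. Its strongest site, 74128 bp from Slc45a1, had 389 ± 116 tags with DEX (SD, n = 9). On chromosome 13, 5 sites between Gadd45g and Diras2 (69011 bp) and 4 more on the Gadd45g side (80232 bp) formed neighbouring runs, in which 3 and 4 sites passed. Runs of 4 lay between Wdr5 and Rxra, where all 4 sites were called in all 9 DEX libraries and 3 in all 18, near Foxo1, near Klf14 and near Irs2, an adaptor of the insulin receptor.

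The far sites had 172 nearest coding genes, of which 122 had 1 far site and 12 had at least 4. Ptpn1 had 9, Gadd45g 8, Foxo1 7, Errfi1 and Myc 6 each, and Cebpb, Eea1, Irf2bp2, Irs2, Klf14, Maf and Slc45a1 4 each. Of the 172 genes, 46 (26.7%) were also the nearest gene of a receptor site within 50 kb, and the other 126 were nearest to far sites only. Closer sites with another nearest gene were not counted.

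Genes on the list of nuclear receptors and liver transcription factors were nearest to 19 far sites (6.93%), against 1.41% of all 2550 sites. These were Foxo1 with 7 sites, Cebpb and Irf2bp2 with 4 each, Gata6 with 2, and Rxra and Nr5a2 with 1 each. Of the 19, 10 passed the detection test, as did 17 of the 36 sites at any distance with such a nearest gene. Classical glucocorticoid-induced genes were nearest to 15 (5.47%, against 2.78% of all). These were Errfi1 with 6, Cebpb with 4, Bcl6 with 3 and Pik3r1, a regulatory subunit of phosphoinositide 3-kinase, with 2. Of the 15, 9 passed, as did 35 of the 71 sites at any distance with such a nearest gene. Of the 17 matched genes on the lipid metabolism list, 1, the acyl-CoA synthetase gene Acsl1, was nearest to a far site, 61441 bp away, called in 5 DEX and 0 PBS libraries. No far site had a nearest gene on the lists for gluconeogenesis and amino acid breakdown, targets of hypoxia-inducible factor, the circadian clock or the acute phase, which were nearest to 25, 12, 12 and 23 of all sites. The same held for the marker lists of hepatocytes, Kupffer cells and leukocytes, endothelium, and stellate cells and cholangiocytes, which were nearest to 7, 0, 4 and 0 of all sites. These counts describe the genomic setting and were not tested, since a gene with a wide empty flank can collect more far sites. The lists were also chosen with earlier results of these data known.

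Long non-coding RNA genes covered many far sites. In all 85 far sites lay inside an annotated non-coding gene, 82 of them inside a long non-coding RNA gene (29.9%), against 6.99% of sites inside coding genes, 16.1% within 10 kb and 22.2% from 10 to 50 kb. Within the far sites the share was 34.1% from 50 to 100 kb, 30.4% from 100 to 200 kb and 20.0% beyond 200 kb. How much of the genome such genes cover was not compared. Of the 85, 42 passed the detection test (49.4%, against 55.3% of all tested sites) and 7 were called in all 18 libraries (8.24%, against 2.42%).

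Oxygen changed the tags of few of the 112 far sites called in all 9 DEX libraries. The other 162 had no tag test, among them the 10 called in all 3 normoxia and none of the 6 hypoxia DEX libraries. With DEX, hypoxia (the mean of 6 h and 24 h) was compared with normoxia in limma over the 935 sites called in all 9 DEX libraries, each library centred on its median and p-values adjusted by Benjamini-Hochberg over all 935. Of the 112 far sites 2 had more tags in hypoxia, where 3.1% of all did, and 2 had fewer, where 2.03% of all did. At an unadjusted p of 0.05 the counts were 17 of 112 against 17.3% of all. The median log2 change was 0.08 at far sites and 0.05 at all sites. None of the 112 had all 6 hypoxia libraries above all 3 normoxia libraries, where 0.535% of all did, and 2 had all 6 below, where 1.71% did, on the scale of normalized tags. These 2 were the site 143920 bp from Gadd45g, a stress response gene, with 112.2 to 128.2 tags in normoxia and 53 to 103.9 in hypoxia, and the site 141934 bp from Irf2bp2, with 132.8 to 159.4 and 62.4 to 117.1 tags. The second, at a log2 change of -0.46 ± 0.15 (limma adjusted p = 0.102), was named after its values were seen.

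The larger fall was at the site 87114 bp from Cebpb, at the shared start of Gm14321 and Gm32287 (chr2:167777419-167777674). It had 266.3, 266.3 and 327.4 tags in normoxia, 208.0, 346.5 and 247.4 after 6 h, and 72.6, 106.2 and 106.8 after 24 h, all with DEX. The 24 h values lay below all others, and the 6 h values overlapped those of normoxia. The log2 change was -0.72 ± 0.15 over both times (SE; limma adjusted p = 0.00957) and -1.32 ± 0.17 at 24 h (limma adjusted p = 0.000429). At 6 h it was -0.11 ± 0.17 (limma adjusted p = 0.856), and 24 h was below 6 h by -1.21 ± 0.17 (limma adjusted p = 0.00514). The call for both times was kept without any 1 DEX library. It was lost without centring of the libraries (-0.87, limma adjusted p = 0.117) and with the 6 hypoxia libraries as 1 group (limma adjusted p = 0.302).

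The other fall was in the same run, 99576 bp from Ptpn1 (chr2:167831055-167831294). It had 223.8, 213.8 and 154.0 tags in normoxia, 159.1, 232.1 and 109.4 after 6 h, and 70.9, 84.8 and 108.4 after 24 h. Here too all 24 h values were below all others. The log2 change was -0.58 ± 0.14 over both times (limma adjusted p = 0.029) and -0.88 ± 0.16 at 24 h (limma adjusted p = 0.00661). Leaving out any of 4 DEX libraries (normoxia replicate 1 or 2, 6 h replicate 3, 24 h replicate 2) ended the call over both times, with limma adjusted p of 0.0688 to 0.169. It was also lost without centring (limma adjusted p = 0.348), with the share of tags in peaks as a covariate (0.205) and with the hypoxia libraries as 1 group (0.14). The strongest site of the run, between these and Ptpn1, had a log2 change of 0.16 ± 0.15 (limma adjusted p = 0.608).

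Tags rose in hypoxia at 2 sites. That 467181 bp from Sox2, a pluripotency factor gene (chr3:35119522-35119763) had 88.0, 121.2 and 95.2 tags in normoxia, 116.2, 188.8 and 94.2 after 6 h, and 110.2, 141.3 and 158.2 after 24 h. Its values overlapped between conditions before centring. The log2 change was 0.53 ± 0.14 (limma adjusted p = 0.0372), and the call was lost when any 1 DEX library other than normoxia replicate 2 was left out (limma adjusted p of 0.0511 to 0.11). The site 70517 bp from Grik3, a glutamate receptor subunit gene (chr4:125419621-125419864), had 108.5, 100.2 and 91.3 tags in normoxia, 134.6, 190.6 and 96.1 after 6 h, and 96.6, 137.9 and 142.4 after 24 h. Its log2 change was 0.52 ± 0.11 (limma adjusted p = 0.0142), lost without normoxia replicate 2 (limma adjusted p = 0.0784). Without centring of the libraries neither rise passed (limma adjusted p = 0.996 for both), nor with the share of tags in peaks as a covariate (0.237 for Sox2 and 0.092 for Grik3). With the hypoxia libraries as 1 group the Sox2 site had a limma adjusted p of 0.0855. The largest rise of the 112, 66127 bp from Tprg at 0.57 ± 0.16 (limma adjusted p = 0.0574), did not pass, nor did a fall 143920 bp from Gadd45g, at -0.51 ± 0.14 (limma adjusted p = 0.0514).

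Against the same normoxia libraries, 6 h alone gave 0 higher and 0 lower far sites in limma, where 1.71% and 0.856% of all sites passed; at an unadjusted p of 0.05 there were 11 and 5, against 9.73% and 5.56% of all. After 24 h alone the same 4 sites passed, 2 higher and 2 lower, where 2.14% and 2.03% of all did. The direct contrast of 24 h with 6 h, added after the data were seen, found 0 far sites higher (0.107% of all; 4 far sites at an unadjusted p of 0.05, against 7.27% of all) and 3 lower (1.28% of all; 10 at an unadjusted p of 0.05, against 9.2% of all). Besides the Cebpb site at 87114 bp these were its neighbour at 91336 bp, at -0.82 ± 0.17 (limma adjusted p = 0.0232), and a site 276580 bp from Maf, at -0.90 ± 0.17 (limma adjusted p = 0.0172). The Cebpb site at 91336 bp had 156.3, 138.4 and 121.5 tags in normoxia, 138.1, 199.2 and 169.4 after 6 h, and 60.7, 91.5 and 86.2 after 24 h. The Maf site had 202.6, 218.6 and 222.9 tags in normoxia, 280.6, 381.1 and 233.1 after 6 h, and 112.0, 114.1 and 170.1 after 24 h. At both, the 24 h values were below all others. Without 6 h replicate 3 or 24 h replicate 2, 1 far site passed this contrast.

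**Figure D5:**
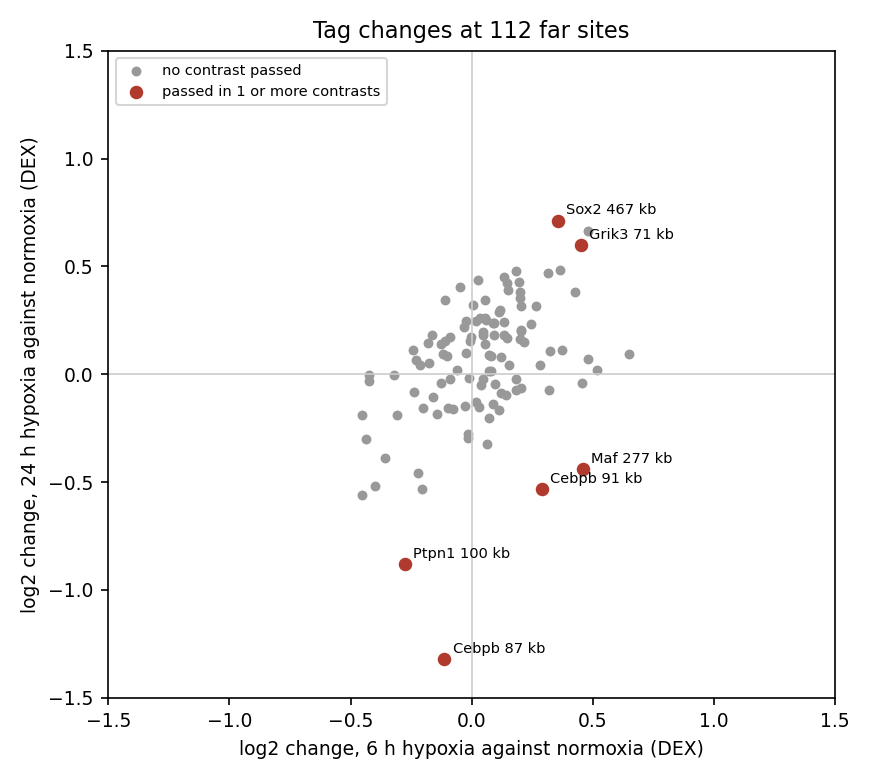
Log2 change of tags with DEX at the 112 far sites called in all 9 DEX libraries, 6 h hypoxia against normoxia (x axis) and 24 h against normoxia (y axis), which share the normoxia libraries; red points passed limma in at least 1 contrast and carry their nearest gene and its distance. The 2 falls at 24 h, -1.32 and -0.88, lie between Cebpb and Ptpn1, and most points lie within 0.5 of 0.

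The detection test between hypoxia and normoxia had too few libraries to decide for any site, so its lack of calls is not a sign of equal detection. With DEX, 0 of 273 far sites passed Fisher's exact test after adjustment, as 0% of all sites did, and 23 reached an unadjusted p of 0.05, where 8.85% of all did, each called less often in hypoxia. The smallest p of any site was 0.0119, the smallest that 6 against 3 libraries allow, and its Benjamini-Hochberg adjusted value was 0.343. With PBS 0 of 85 passed, as 0% of all did, and 2 reached an unadjusted p of 0.05, where 0.475% of all did. Called in all 3 normoxia DEX libraries and in none of the 6 hypoxia DEX libraries were 10 far sites (3.65%, against 3.98% of all), with mean tags of 48.4 to 73.9. None showed the reverse, as 0% of all did.

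In 4 far sites (1.46%, against 1.79% of all) more PBS than DEX libraries had a peak, none past the detection test. They lay 64833 bp from Cr2 (a complement receptor gene), 61079 bp from Axin2 (a feedback inhibitor of Wnt signalling), 282093 bp from Pex2 (a peroxisome gene) and 316066 bp from Alkbh8. The Cr2 site had 346.5 to 661.1 tags in 7 DEX libraries and 435.0 to 948.5 in 9 PBS libraries. These 4 sites stood only 5.70-fold to 7.88-fold over input, against a median of 63.6-fold for far sites, and their median input tags were 11.5 to 145.3, against 1.88. The part of the input signal in their PBS calls was not tested. In all, 5 far sites were under 10-fold over input (1.82%, against 1.58% of other sites), and none of them passed the detection test.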

How the data were processed

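Per the submitters' processing notes, reads were handled with Trimmomatic, BWA 0.7.17, SAMtools 1.10 and HOMER on mm10; neither their order nor a version of Trimmomatic or HOMER is given in the sources used here. Peaks were called in each library separately, per the file headers, against an input, with at least 4-fold over input and over the local region. The authors' deposited lists give, per peak, a normalized tag count (a signal scaled to 10000000 tags), a focus ratio (a fraction), a score, the tag signal of sample and input, and a fold over input, which is a ratio. The minimum score was 50 tags, per the file headers, so a site that is not called has no value, and the same score stands for more normalized tags in a shallower library (50 tags scale to 11.5 to 86.6 by library). The normalized tag count of a called peak can fall somewhat below that value. Total tags were 5772670 to 13181686 in DEX and 8667179 to 43645787 in PBS libraries.

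Overlapping peaks were merged, and each site took the highest tag count of its peaks in a library. Distances run from the site's centre to gene spans of RefSeq GRCm38.p6. Tests used Python 3.11.15, SciPy 1.17.1, R 4.3.3 and limma 3.58.1, on all sites, with far sites read out. On simulated data limma recovered 196 of 200 changed sites with 12 false calls over 935 sites, and the detection test 151 of 200 with 0 over 2563. The log2 change simulated for limma, with independent noise, was larger than any far-site change over both hypoxia times (-0.72 to 0.57). This recovery therefore does not apply to changes of that size.

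Named sites are the 10 strongest, those called in all 18 libraries, the 8 strongest with DEX only, those past the hypoxia tag test (the 6 largest changes if fewer pass), up to 6 with more PBS calls, the 5 most remote, those nearest listed genes, 3 on each side of the limit, and runs of 3 or more. The direct 24 h contrast, and the sites named from it, were added later, as was the choice of sequences. Members and gene lists were chosen with earlier results of these data known. The planned motif search around site centres was replaced by one in promoter windows, as no genome sequence was used here. Deviations of same-numbered replicates correlated at 0.006 to 0.506 (9 pairs of DEX libraries, median 0.232) and -0.588 to 0.519 (45 pairs over all 18, median 0.143). Differently numbered replicates correlated at -0.482 to 0.357 (18 pairs, median -0.139) and -0.595 to 0.542 (90 pairs, median -0.097). The ranges overlapped, and the labels do not say that numbers pair the samples. The main tests therefore did not use the numbers as blocks. The alternatives were other distance limits, merging of peaks up to 100 bp apart, all annotated genes, a common tag threshold of 86.6, lists of equal length, other tests, other centring, a replicate block and each library left out.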

Additional observations from a re-analysis of the deposited data

How the results depend on the processing

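The counts of far sites depend first on the rule for far. Beyond 20 kb, 254 of 471 sites were called more often with DEX, 7 changed tags in hypoxia and 1 changed at 6 h. Beyond 100 kb the counts were 71 of 139 for detection, 1 for hypoxia, 1 for 24 h, 1 for 24 h against 6 h and 6 of 6 for tags with DEX. With distances to all annotated genes they were 19 of 25, 1, 1, 1 and 0 of 0; the difference in far share between DEX and PBS turned to 0.55 points, the hypoxia difference in far share fell to 0.028 points (exact permutation p = 0.75) and the log2 tag ratio of far to other sites turned to -0.36 (exact permutation p = 0.00391, 10 far sites). These alternatives change which sites are counted.

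Detection of more far sites with DEX was 86 of 143 at a common tag threshold, 5 of 27 with lists of equal length, and 96 of 514 with all sites tested. The common threshold also gave 1 of 2 for tags with DEX, 1 for 24 h against 6 h and 0.497 points for the hypoxia share (exact permutation p = 0.214). Without centring 0 far sites changed tags in hypoxia and 2 at 24 h; with the share of tags in peaks as covariate 1 and 1; with the hypoxia libraries as 1 group 1. With libraries centred, 4 of 15 had more tags with DEX, and the sites near Dio3 (-0.018), Trpm3 (-0.36), Ptpn1 at 85979 bp (-0.54) and 70003 bp (-0.27) and Lpp (-1.58) turned negative; Leaving out 1 library at a time, Lpp ran from -0.10 (normoxia PBS replicate 1) to 0.15 (normoxia PBS replicate 3), and it was -0.017 without 24 h hypoxia DEX replicate 3.

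Whether the replicate numbers pair the samples is not known. With a replicate block 95 far sites passed the detection test, 7 changed tags in hypoxia, 7 at 24 h and 5 between 24 h and 6 h. Leaving out 1 library at a time gave 140 to 167 far sites called more often with DEX, 14 to 18 with more tags, a far share difference of -4.92 to -3.55 points, 0.563 to 1.03 points in hypoxia, a log2 tag ratio of 0.021 to 0.11, and 2 to 4 sites changed in hypoxia, 0 to 1 at 6 h, 2 to 6 at 24 h and 1 to 4 between 24 h and 6 h. The hypoxia counts fell to 2 without normoxia DEX replicate 1, 6 h DEX replicate 3 or 24 h DEX replicate 2, and at 24 h to 2 without 24 h DEX replicate 1 or 3. Detection changes in hypoxia were 0 in each alternative run. Where no cause is stated above, the cause was not tested.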

Other observations

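Of the 274 far sites, 25 lay more than 50 kb from every annotated gene, non-coding genes and pseudogenes included. Of these 19 were called more often with DEX by the exact Cochran-Mantel-Haenszel test, with Benjamini-Hochberg adjustment over all sites tested (76.0%, against 55.3% of all tested sites). In all 9 DEX libraries 10 of the 25 were called (against 36.5% of all), in no PBS library 14 (56.0%, against 57.2%) and in all 18 libraries 0 (against 2.42%). The site 600440 bp from Igfbp3 was the strongest of those called in all 9 DEX libraries, at 277 ± 41.2 tags (SD, n = 9), followed by sites 276580 bp from Maf, at 215 ± 83.1, and 59421 bp from Gata6, at 151 ± 56.6.

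The far sites were uneven over the chromosomes. Chromosome 13 had 24 far sites among its 90 sites (26.7%), chromosome 16 had 17 among 92 (18.5%), chromosome 3 had 19 among 107 (17.8%) and chromosome 8 had 26 among 165 (15.8%), while chromosome 7 had 3 among 138 (2.17%) and chromosome 17 had 6 among 135 (4.44%). Gene density was not compared.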
